A study of Rattus norvegicus with 22 samples.

Results

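Aminoacyl-tRNA synthetases are the enzymes that attach each amino acid to its transfer RNA. Members were taken from the platform annotation by symbol: a capital letter followed by "ars" with nothing, 1 or 2 after it, together with Farsa, Farsb and Eprs1. The rule found 34 genes among the 18166 with a single symbol, 19 of them cytosolic and 15 mitochondrial (symbols ending in 2), each with 1 probe set. The samples were median liver lobes of 22 female Crl:CD(SD) rats, an outbred Sprague-Dawley stock, labelled as 12 weeks old (10 to 14 weeks in the protocol text). In the vehicle group, 12 rats received a single intraperitoneal dose of the formulation without compound, a suspension medium with mannitol, hydroxypropylmethylcellulose and sodium dodecyl sulphate in water. In the GSK932121A group, 10 rats received 50 mg/kg of the compound once by the same route; it is named in the title as an inhibitor of complex III of the mitochondrial respiratory chain, and these livers are labelled as treated for 5 hours. No time is stated for vehicle livers, and 2 dosed animals with little compound in plasma had been left out by the submitters.

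Cells carry nearly complete sets of these enzymes for the cytosol and for the mitochondrion, and all of them are encoded in the nucleus. Most amino acids have a separate gene for each compartment, while Gars1 (glycine) and Kars1 (lysine) serve both, and the cytosolic glutamate and proline activities are joined in 1 protein, Eprs1. Mitochondria charge glutamine tRNA by way of the glutamate enzyme Ears2 and an amidotransferase, so Qars1 has no mitochondrial partner. Several cytosolic enzymes (Eprs1, Iars1, Kars1, Lars1, Mars1, Qars1 and Rars1 among them) sit in a multi-synthetase complex on the scaffold proteins Aimp1, Aimp2 and Eef1e1. Genes of cytosolic synthetases are known targets of ATF4, the transcription factor of the amino acid and integrated stress responses.

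The comparison asked which synthetase genes differ between livers exposed to the complex III inhibitor and vehicle livers, and whether the enzymes of the cytosol and the mitochondrion differ alike. Of 19 cytosolic genes 9 rose and 0 fell, and of 15 mitochondrial genes 0 rose and 2 fell (limma, adjusted p under 0.05 over all genes). A further 3 cytosolic genes were higher and 1 lower at an unadjusted p under 0.05 without passing, as were 2 mitochondrial genes in the upward and 2 in the downward direction. Both counts of 0 were also 0 by the Welch and the Wilcoxon rank sum test. The background was 5.31% of all genes for rises and 7.05% for falls. Among the 4894 genes at least as bright as the dimmest cytosolic member, 9.77% rose, and among the 8136 genes within the brightness range of the mitochondrial members, 9.18% fell. The log2 difference, GSK932121A minus vehicle, was above 0 for 18 of 19 cytosolic genes, with a median of 0.21, against 47.6% of all genes and 38.7% of those as bright. For the mitochondrial genes it was below 0 for 10 of 15, with a median of -0.07, against 54.1% of genes in their brightness range. No member had all treated arrays above every vehicle array, as 0.457% of all genes did. The median over all genes was -0.01. It was -0.05 over the genes as bright as the cytosolic members and -0.02 over those in the brightness range of the mitochondrial members. The members' differences ran from -0.30 to 0.66 on the log2 scale. The mean log2 value of 5 hepatocyte markers differed without overlap, 11.67 to 11.98 in vehicle and 12.03 to 12.13 in treated arrays. Cps1 and Tat passed upward, and the median difference over the 5 was -0.02. The part of this marker mean in the synthetase values was not tested. In bulk liver a change in the number of cells of a type and a change in RNA per cell cannot be told apart.

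**Figure D1:**
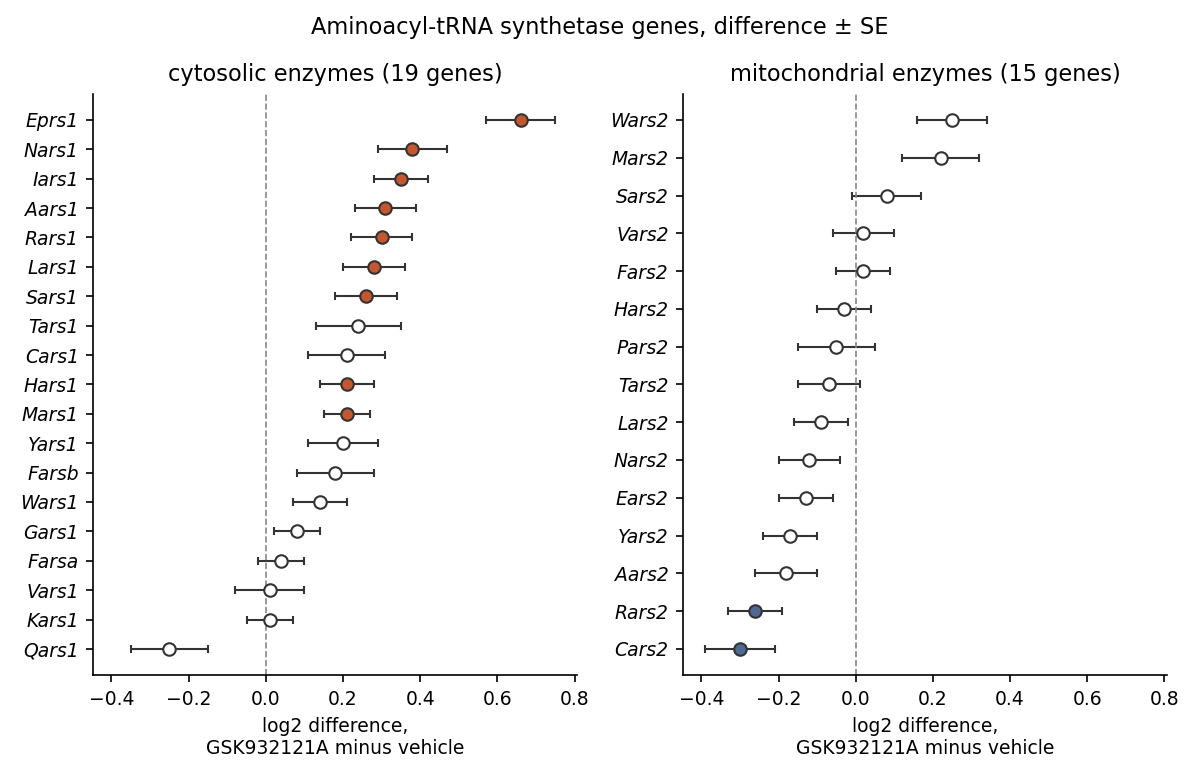
Log2 difference (GSK932121A minus vehicle, horizontal axis) with its SE for the 19 cytosolic (left) and 15 mitochondrial (right) synthetase genes, where filled points passed at an adjusted p under 0.05. The 9 filled cytosolic points lie between 0.21 and 0.66 and the 2 filled mitochondrial points at -0.26 and -0.30.

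Within the multi-synthetase complex 5 of 7 measured enzymes rose, with a median log2 difference of 0.28 over the 7. This stood against 9 of all 19 cytosolic members, 5.31% of all genes and 9.77% of genes at least as bright as the dimmest cytosolic member. Eprs1, the bifunctional enzyme for glutamate and proline, had the largest difference of any member. Its log2 values ran from 9.16 to 9.65 with a median of 9.39 in vehicle livers and from 9.57 to 10.57 with a median of 10.07 in treated livers. Only the lowest treated array fell inside the vehicle range, and 9 of 10 lay above it. Eprs1 rose 1.58-fold, by 0.66 ± 0.09 (SE; limma, adjusted p = 1.09e-05).

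Iars1, which charges isoleucine tRNA, ran from 7.70 to 8.23 (median 7.88) after vehicle and from 7.90 to 8.43 (median 8.26) after GSK932121A. Of the treated arrays, 7 lay above all 12 vehicle arrays, and those at 8.18 and 8.21 lay below the highest vehicle array alone. The lowest treated array, replicate 24 at 7.90, lay near the vehicle median. Iars1 rose 1.28-fold (difference 0.35 ± 0.07, SE; limma, adjusted p = 0.000573). Mars1, the methionine enzyme, had the narrowest spread of the genes that rose, with SDs of 0.12 in vehicle and 0.08 in treated livers. Its values were 7.55 to 7.96 (median 7.77) against 7.88 to 8.13 (median 7.99), with 7 treated arrays above the vehicle range. Mars1 rose 1.16-fold (limma, adjusted p = 0.0105).

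The arginine and leucine enzymes of the complex rose with wider overlap. Rars1 ran from 7.48 to 8.39 (median 7.84) after vehicle and from 7.97 to 8.40 (median 8.16) after treatment. The treated values filled the upper part of the vehicle range rather than leaving it: 1 treated array lay above every vehicle array. Rars1 rose 1.23-fold (0.30 ± 0.08, SE; limma, adjusted p = 0.0182), but did not pass once 5 surrogate variables for hidden factors were fitted (difference 0.26, adjusted p = 0.152). These variables hold 45.5% of the variance of group. In any fit that holds them, hidden factors and part of the treatment difference therefore cannot be told apart. Lars1 ran from 7.00 to 7.64 (median 7.34) after vehicle and from 7.40 to 7.85 (median 7.52) after treatment, with 2 treated arrays above the vehicle range. Lars1 rose 1.22-fold (limma, adjusted p = 0.0135).

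The remaining measured enzymes of the complex, Kars1 and Qars1, did not pass. Kars1, the lysine enzyme that also serves mitochondria, had means of 8.57 ± 0.10 and 8.58 ± 0.12 (SD, n = 12 and 10), a log2 difference of 0.01 ± 0.06 (SE). Qars1, the glutamine enzyme, was the 1 cytosolic gene with a difference below 0. It went from 7.51 ± 0.24 to 7.26 ± 0.28 (SD), with 4 treated arrays below every vehicle array and a difference of -0.25 ± 0.10 (SE; limma, adjusted p = 0.139).

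Of the 12 cytosolic genes outside the complex 4 rose, and all 12 had differences above 0. Shares for rises were 5.31% of all genes and 9.77% of those at least as bright as the dimmest cytosolic member. Differences above 0 were held by 47.6% and 38.7% of these. Nars1, which charges asparagine tRNA, had the largest. Its log2 values ran from 7.69 to 8.38 (median 7.98) in vehicle and from 8.02 to 8.59 (median 8.42) in treated livers. The groups overlapped in 3 treated arrays, and the other 7 exceeded the vehicle range. Nars1 rose 1.30-fold (0.38 ± 0.09, SE; limma, adjusted p = 0.00423).

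Aars1, the alanine enzyme, ran from 8.05 to 8.68 (median 8.45) after vehicle and from 8.56 to 9.16 (median 8.63) after treatment. The lowest treated array lay above the vehicle median, and 3 treated arrays exceeded the vehicle range. Aars1 rose 1.24-fold (limma, adjusted p = 0.0140). Sars1, the serine enzyme, ran from 6.45 to 6.93 (median 6.70) after vehicle and from 6.67 to 7.21 (median 6.96) after treatment. Of the treated arrays 6 exceeded the vehicle range and the others lay within it. Sars1 rose 1.2-fold (limma, adjusted p = 0.0227), and the call was lost by the Wilcoxon rank sum test (adjusted p = 0.0585) and without GSK932121A replicate 18 (adjusted p = 0.0503).

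Hars1, the histidine enzyme, had the weakest call among the genes that rose. Its values ran from 6.85 to 7.31 (median 7.09) after vehicle and from 7.02 to 7.46 (median 7.32) after treatment, with 5 treated arrays above the vehicle range. Hars1 rose 1.16-fold (0.21 ± 0.07, SE; limma, adjusted p = 0.0385). It did not pass in 13 of the 22 fits that left out 1 array (vehicle replicates 1, 2, 3, 4, 5, 9 and 12 and GSK932121A replicates 14, 16, 18, 22, 23 and 24), where the adjusted p reached 0.0735, nor after fitting surrogate variables (difference 0.16, adjusted p = 0.368).

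**Figure D2:**
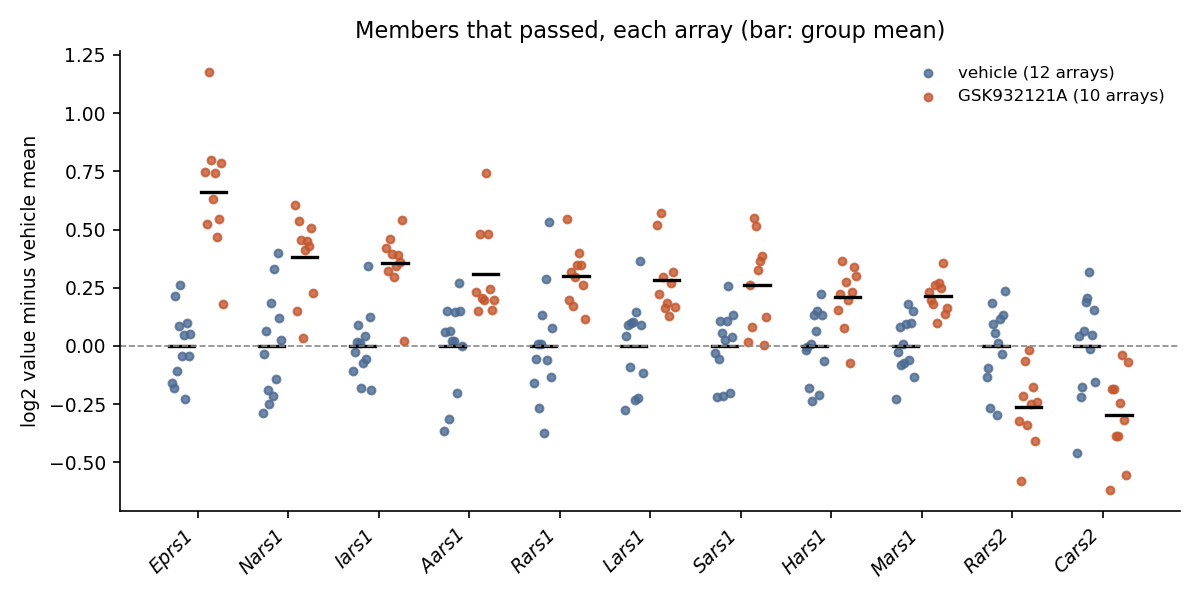
Log2 value of each array minus the vehicle mean of the gene (vertical axis) for the 11 members that passed, with blue points for the 12 vehicle arrays, orange points for the 10 GSK932121A arrays and a bar at each group mean. For Eprs1 all but 1 treated array lie above the vehicle arrays, while for Rars1 and Lars1 most treated arrays lie in the upper part of the vehicle range.

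The other cytosolic genes outside the complex did not pass. Tars1 (threonine), Cars1 (cysteine) and Yars1 (tyrosine) had log2 differences of 0.24, 0.21 and 0.20, about as large as those of Hars1 and Mars1 but with wider spread (SDs up to 0.30). Their adjusted p-values in limma were 0.190, 0.230 and 0.168. Of the 3, Yars1 was nearest to the threshold, and it passed without GSK932121A replicate 24 (adjusted p = 0.0444). The paired subunits of the phenylalanine enzyme, Farsb and Farsa, differed by 0.18 ± 0.10 and 0.04 ± 0.06 (SE). Wars1, the tryptophan enzyme, differed by 0.14 ± 0.07, with 6 treated arrays above the vehicle range. Gars1, the glycine enzyme of both compartments, differed by 0.08 ± 0.06 and Vars1, the valine enzyme, by 0.01 ± 0.09.

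A subset of 10 cytosolic genes often reported as ATF4 targets (Aars1, Cars1, Eprs1, Gars1, Iars1, Mars1, Nars1, Sars1, Tars1 and Wars1) held 6 of the 9 rises, with a median log2 difference of 0.25. The other 9 cytosolic genes held 3 rises, with a median of 0.18. By catalytic fold, class I and class II cytosolic enzymes each had 4 rises among 9 genes and a median of 0.21. Eprs1 joins a domain of each class and was counted in neither. Beside these counts, 5.31% of all genes rose, and 9.77% of those at least as bright as the dimmest cytosolic member. The subsets were described by counts alone, and no difference between them was tested.

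Among the 15 mitochondrial genes 2 fell, Cars2 and Rars2. Beside this, 7.05% of all genes fell, and 9.18% of those in the brightness range of the mitochondrial members. Cars2, which charges cysteine tRNA in the mitochondrion, ran from 5.95 to 6.73 (median 6.46) after vehicle and from 5.79 to 6.37 (median 6.13) after treatment. Its groups overlapped broadly, with 2 treated arrays below every vehicle array and none above the vehicle median. Cars2 fell 1.23-fold (-0.30 ± 0.09, SE; limma, adjusted p = 0.0241). The call was lost without GSK932121A replicate 13 (adjusted p = 0.0554) or 23 (adjusted p = 0.0519) and after fitting surrogate variables, where the difference shrank to -0.17 (adjusted p = 0.385).

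Rars2, the mitochondrial arginine enzyme, ran from 6.24 to 6.78 (median 6.57) after vehicle and from 5.96 to 6.52 (median 6.29) after treatment. Every treated array lay below the vehicle median, and 4 lay below the vehicle range. Rars2 fell 1.2-fold (-0.26 ± 0.07, SE; limma, adjusted p = 0.0194), but did not pass after fitting surrogate variables, where the difference shrank to -0.11 (adjusted p = 0.639).

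Aars2 (alanine), Yars2 (tyrosine) and Ears2 (glutamate) had differences of -0.18, -0.17 and -0.13 that did not pass, with 5, 5 and 3 treated arrays below every vehicle array. Nars2, Lars2, Tars2, Pars2 and Hars2 differed by -0.12, -0.09, -0.07, -0.05 and -0.03, with adjusted p-values in limma from 0.440 to 0.871. Pars2, the mitochondrial proline enzyme, was the dimmest member, with a vehicle mean of 4.66 ± 0.25 (SD) that lay below every array median.

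The mitochondrial genes with the largest upward differences were Wars2 and Mars2, and neither passed. Wars2, for tryptophan, was the member nearest to the threshold among those that did not pass. It ran from 5.12 to 5.71 (median 5.38) after vehicle and from 5.24 to 6.12 (median 5.68) after treatment, a difference of 0.25 ± 0.09 (SE; limma, adjusted p = 0.0708). Wars2 passed without vehicle replicate 1 (adjusted p = 0.0414) or GSK932121A replicate 24 (0.0218), after renewed quantile normalisation (0.0487) and among genes with a mean log2 value of at least 5 (0.0438). Mars2, for methionine, differed by 0.22 ± 0.10, and 1 treated array (GSK932121A replicate 21) stood at 8.00 against 7.01 to 7.53 in the others. Sars2, Fars2 and Vars2 differed by 0.08, 0.02 and 0.02.

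Enzymes for the same amino acid were then set side by side, in 16 pairs over 15 amino acids. Eprs1 is in the glutamate and the proline pair, and Fars2 is paired with each phenylalanine subunit, so the pairs are not independent. Mitochondrial members were dimmer, with mean log2 values of 4.64 to 7.25 against 6.73 to 9.69 for cytosolic members. In 13 pairs the log2 difference of the cytosolic gene was the larger, and in 10 the cytosolic gene was above 0 while the mitochondrial gene was below 0. The median of the cytosolic minus the mitochondrial difference was 0.34. Rars1 and Rars2 were the 1 pair in which both genes passed, in opposite directions, 0.56 apart. Their within-array ratio, centred on the vehicle mean, ran from -0.45 to 0.57 in vehicle and from 0.24 to 0.87 in treated arrays, with 5 treated arrays above the vehicle range.

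For glutamate, the centred ratio of Eprs1 to Ears2 ran from -0.39 to 0.28 in vehicle and from 0.34 to 1.21 in treated arrays. This was the 1 pair whose groups did not overlap, and the difference between the genes was 0.79. Nars1 and Nars2 lay 0.50 apart, and Cars1 and Cars2 likewise 0.50 apart, each with 9 of 10 treated arrays above the vehicle range of the ratio. The exceptions were tryptophan (-0.11), methionine (-0.01) and valine (-0.01), where the mitochondrial gene differed as much or more. Since the genes were chosen as a family with earlier results known, these ratios were not tested.

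**Figure D3:**
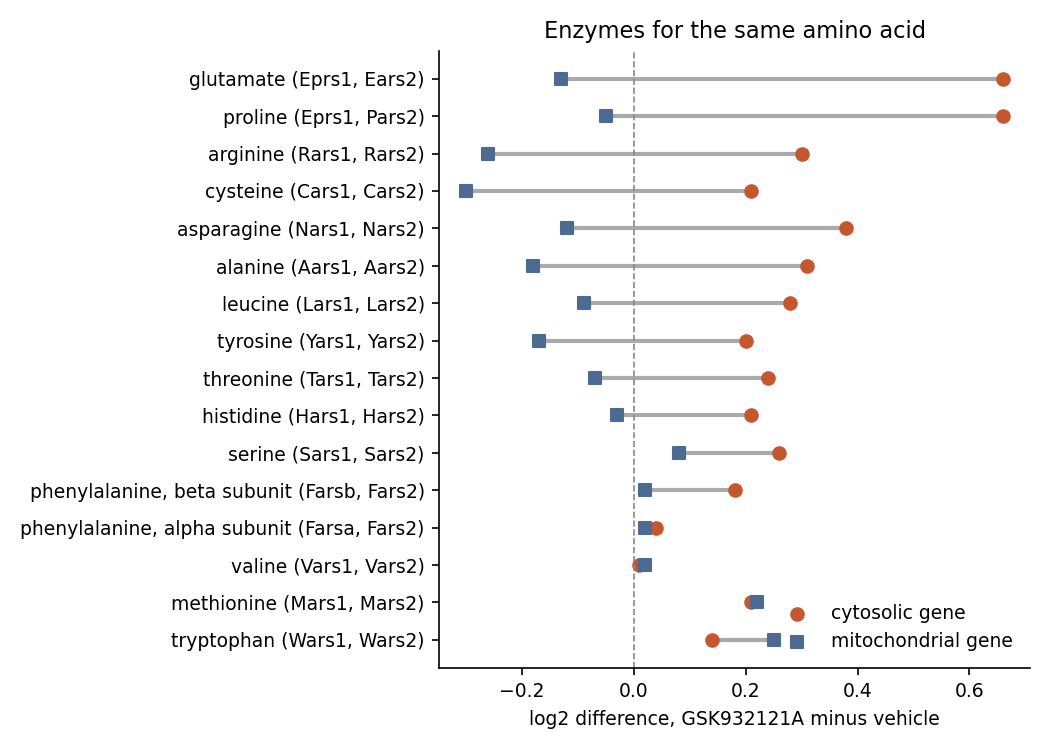
Log2 difference (GSK932121A minus vehicle, horizontal axis) of the cytosolic gene (circle) and the mitochondrial gene (square) for the same amino acid, ordered by the gap. The circle lies to the right of the square in 13 of 16 pairs, with the widest gap, 0.79, for glutamate.

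The neighbouring genes Hars1 and Hars2 are transcribed away from each other from starts that lie close together, in RefSeq's rat assembly GRCr8. The stretch between them (chr18:28672713-28672809, plus strand, 97 bases) is shown because a gene on 1 side rose and the gene on the other did not pass.
Hars1 and Hars2: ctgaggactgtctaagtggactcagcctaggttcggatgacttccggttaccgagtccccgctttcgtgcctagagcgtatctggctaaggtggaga
Hars1 rose by 0.21 and Hars2 differed by -0.03 ± 0.07 (SE). The Hars1 call was weak (limma, adjusted p = 0.0385) and was lost in 13 of 22 fits with 1 array left out. No difference between Hars1 and Hars2 was tested. The centred ratio of Hars1 to Hars2 ran from -0.26 to 0.21 in vehicle arrays and from 0.01 to 0.58 in treated arrays, 7 of which lay above the vehicle range.

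Promoter windows from RefSeq (GRCr8, 250 bases before to 50 bases after the start of the gene) were available for 31 of 34 members and were searched for TGATGNAA, the core of the C/EBP-ATF response element to which ATF4 binds, on both strands (TTNCATCA on the other). The letters were found in 7 of 17 cytosolic windows (41.2%) and in 0 of 14 mitochondrial windows, against 3.98% of all 33469 windows and 3.19% of 14502 tested genes with a window. Among all tested genes with a window it was found in 4.17% of those that rose and 2.06% of those that fell. Of the 7 genes with a match 6 are shown, and the window of Aars1 is not described here. The match lay 24 bases before the start of the gene in Iars1, 17 in Mars1, 14 in Nars1 and 27 in Tars1, and 18 and 39 bases after it in Cars1 and Yars1. The stretches of 30 bases below show the match in these 6 genes, with the matched letters in capitals and each sequence on the strand of its gene.
Iars1: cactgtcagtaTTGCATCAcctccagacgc
Mars1: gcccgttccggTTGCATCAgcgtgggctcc
Nars1: cctaggtgatcTGATGCAAcgcttcagtca
Tars1: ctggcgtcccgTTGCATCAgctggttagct
Cars1: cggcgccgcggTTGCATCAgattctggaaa
Yars1: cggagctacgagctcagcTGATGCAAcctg
They lie at chr17:15193658-15193687 (minus strand), chr7:65023752-65023781 (minus), chr18:60275778-60275807 (minus), chr2:62114811-62114840 (minus), chr1:208225334-208225363 (minus) and chr5:146820183-146820212 (plus), in the order printed.

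The 6 stretches share the letters TGATGCAA on 1 strand or the other. The full 9-letter form TGATGCAAT (ATTGCATCA on the other strand), which contains the shorter motif and was also chosen after the values were known, was found in 2 of 17 cytosolic windows (11.8%), that of Iars1 among them, and in 0.188% of all windows. Of the 7 genes with a match, Aars1, Iars1, Mars1 and Nars1 rose and Tars1, Cars1 and Yars1 did not pass. Their log2 differences ran from 0.20 to 0.38 with a median of 0.24, against -0.25 to 0.66 with a median of 0.16 for the 10 cytosolic genes whose window held no match. Eprs1, Hars1, Lars1 and Sars1 rose with no match in the window, which says only that these letters are not in these 300 bases. A match is a description of the sequence, and binding was not measured.

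The 250 bases before the start of Nars1 (GRCr8, chr18:60275783-60276032, minus strand) are given in full, as the longer context of such a site in the gene with the largest rise outside the complex.
Nars1 upstream: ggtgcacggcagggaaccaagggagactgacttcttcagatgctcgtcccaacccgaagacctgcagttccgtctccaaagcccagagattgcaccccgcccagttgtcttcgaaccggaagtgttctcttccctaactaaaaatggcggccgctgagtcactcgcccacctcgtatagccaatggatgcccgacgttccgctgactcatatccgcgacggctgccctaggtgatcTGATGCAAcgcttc
The capitals mark the match to TGATGNAA. The core of the site of NRF1, a regulator of nuclear genes for mitochondrial proteins, was searched on both strands in the same way after the expression values were known. It was found in 3 of 17 cytosolic windows (Farsb, Sars1 and Tars1), in 2 of 14 mitochondrial windows (Pars2 and Wars2) and in 4.25% of all windows and 7.0% of tested genes.

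Class means differed between animals within each group. The mean over the 19 cytosolic genes, taken relative to the vehicle mean, ran from -0.13 to 0.17 in vehicle arrays and from 0.03 to 0.34 in treated arrays, 9 of which lay above every vehicle array. The mean over the 15 mitochondrial genes ran from -0.10 to 0.10 in vehicle and from -0.19 to 0.10 in treated arrays, with 2 treated arrays below the vehicle range and 1 above it. The cytosolic minus the mitochondrial mean was -0.07 to 0.10 in vehicle and 0.07 to 0.38 in treated arrays. The SDs in vehicle and treated arrays were 0.08 and 0.08 for the cytosolic mean and 0.06 and 0.08 for the mitochondrial mean. For the cytosolic minus the mitochondrial mean they were 0.06 and 0.11. These class means are given with no test.

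GSK932121A replicate 24 was the treated array nearest to the vehicle group, with a cytosolic mean of 0.03. It was the lowest treated array for 3 of the 9 genes that rose, including Eprs1 (9.57) and Iars1 (7.90), and lay above every vehicle array for 1 of them. The same animal had the lowest treated value of Chac1, a stress-induced target of ATF4, at 7.20 against 8.26 to 11.34 in the other treated arrays. That value still lay above the highest vehicle array, 6.94. Its value of the amino acid transporter Slc38a2, 11.25, likewise lay above the highest vehicle array, 9.59. Without replicate 24 the cytosolic rises numbered 9, with Yars1 gained and Hars1 lost, and the median cytosolic difference was 0.23. In GSK932121A replicate 20 the cytosolic mean was highest, 0.34, and all 19 cytosolic genes lay above their vehicle means, but its Chac1 value, 8.26, was the next lowest. On the vehicle side, replicate 10 was the highest array for 6 of the 9 genes that rose, and without it the median cytosolic difference was 0.23.

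**Figure D4:**
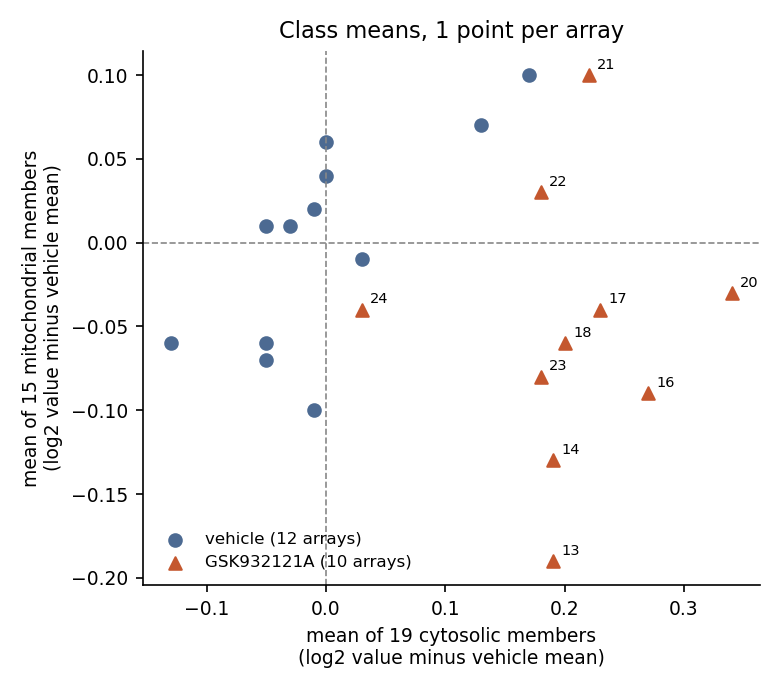
Mean over the 15 mitochondrial members (vertical axis) against the mean over the 19 cytosolic members (horizontal axis), each as log2 value minus the vehicle mean, with 1 point per array and the replicate number beside each treated array. Treated arrays lie to the right of the vehicle arrays, apart from replicate 24 at 0.03, and spread from -0.19 to 0.10 on the mitochondrial axis.

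Genes that work beside the synthetases were read from the same fit, as listed with the members. Shares over all genes were 5.31% for rises and 7.05% for falls. Of the 3 scaffold proteins of the multi-synthetase complex, Eef1e1 rose 1.31-fold (limma, adjusted p = 0.0022), with means of 6.18 ± 0.16 after vehicle and 6.57 ± 0.23 after treatment (SD). The median over the 3 was 0.14. Of 11 other enzymes of tRNA charging 0 rose and 2 fell, with 1 gene higher at an unadjusted p under 0.05 (limma). Mtfmt, which formylates the initiator methionyl-tRNA of mitochondria, fell 1.39-fold (limma, adjusted p = 1.28e-05), with means of 6.60 ± 0.11 after vehicle and 6.12 ± 0.16 after treatment (SD). All 10 treated arrays of Mtfmt lay below the lowest vehicle array. Pstk, a kinase that acts on seryl-tRNA on the way to selenocysteine, fell 1.29-fold (limma, adjusted p = 0.0093).

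Of 38 measured genes for tRNA processing, export and modification 6 rose and 1 fell, with a median log2 difference of 0.02. The background over all genes was 5.31% for rises and 7.05% for falls. Trmt61a and Trmt6, the subunits of a tRNA adenosine methyltransferase, rose 1.48-fold and 1.31-fold (limma, adjusted p = 0.00486 and 0.00502). Rpp38, a subunit of ribonuclease P, rose 1.31-fold, and Adat2, a tRNA adenosine deaminase, fell 1.42-fold (limma, adjusted p = 0.0400 and 0.0248).

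Lists of translation genes for each compartment were read in the same way, beside shares over all genes of 5.31% for rises and 7.05% for falls. Of 27 cytosolic factors 6 rose and 0 fell, with 1 lower at an unadjusted p under 0.05 (limma) and a median log2 difference of 0.07. Abce1, a ribosome recycling factor, and Eif4a1, an initiation helicase, rose 1.26-fold and 1.23-fold, and Eif3d and Eif2b1, subunits of initiation factors, rose 1.22-fold and 1.18-fold. Of 15 genes in the mitochondrial list 1 rose and 4 fell, with a median of -0.13. Unlike the cytosolic list, it also holds methyltransferases of ribosomal RNA, so the lists are not alike in content. Mtrf1l, a mitochondrial release factor, fell 1.34-fold (limma, adjusted p = 0.000913), with 8 treated arrays below the vehicle range. Mrm2, a methyltransferase of mitochondrial ribosomal RNA, fell 1.22-fold and Mtrfr, a mitochondrial release factor family member, fell 1.19-fold, while Mrm3, another methyltransferase of that RNA, rose 1.19-fold.

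Among 25 measured genes of ATF4 and its reported targets, 10 rose and 1 fell, with a median log2 difference of 0.24. The list holds genes of amino acid transport and synthesis and also other stress-induced genes, such as Chac1 and Nupr1. Background shares over all genes were 5.31% for rises and 7.05% for falls. The largest rises were those of Chac1 (12.7-fold), the amino acid transporters Slc38a2 (7.51-fold) and Slc1a4 (6.36-fold), and Nupr1 (2.69-fold). Those of the synthetases were at most 1.58-fold. Asns and Atf4 are named here after their values were seen: Asns, asparagine synthetase, differed by 0.33 ± 0.13 (SE; limma, adjusted p = 0.101) and Atf4 itself by 0.09 ± 0.07 (adjusted p = 0.447).

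Array medians lay between 4.73 and 4.85, correlations between arrays across genes lay between 0.971 and 0.990, and no arrays held identical values. The 5 measured hepatocyte markers lay at percentile 89.9 or above of all genes' brightness, as the label of liver calls for. Among the measured markers of 6 other cell types, Cd163 of Kupffer cells and Lyve1 of the sinusoidal endothelium passed, both upward. The mean of the neutrophil list was 3.84 to 4.38 in vehicle and 3.87 to 4.42 in treated arrays, and that of the 6 Kupffer cell markers was 7.23 to 7.84 and 7.32 to 7.82. The lymphocyte list lay at 4.32 to 4.65 and 4.30 to 4.57, the endothelial list at 8.38 to 8.71 and 8.45 to 8.73, the stellate list at 6.62 to 7.09 and 6.57 to 7.41, and the cholangiocyte list at 4.36 to 4.90 and 4.39 to 5.18. The 4 erythroid markers were not measured under their symbols. The part of other cell types in the synthetase values was not tested.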

How the data were processed

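Liver RNA of 22 rats was measured on 1 Affymetrix whole-transcript array each, per the labels. The deposited values are log2 values made with RMA, per the submitters' processing notes, which corrects background, normalises between arrays and summarises probes (software version: not given in the sources used here). Such normalisation removes a shift shared by all genes and compresses changes of dim probe sets. Precision is limited by how many arrays there are.

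Of 36685 probe sets, 18511 had 1 gene symbol in GEO's platform annotation and 575 had several; 18394 of the first matched the RefSeq gene table by Entrez identifier with 0 symbols changed. The brightest probe set stood for each of 18166 genes. Groups were compared with limma 3.58.1 (R 4.3.3; lmFit and eBayes, group alone, Benjamini-Hochberg over all genes, threshold 0.05). Samples were grouped by title. Some items are not reported here. The labels give no batch. In simulated data for 18166 genes in this comparison, limma recovered 23.9% of 67 genes changed 1.2-fold, 88.1% of 67 changed 1.5-fold and 97% of 66 changed 2-fold, with 11 unchanged genes called. Far fewer genes were changed in the simulation than the 2244 that passed in the data, and its noise was independent between genes. Its threshold was therefore stricter, and the recovered shares need not hold for the members. Most members differed by less than 1.5-fold, where true changes may be missed. The members and lists were chosen with earlier results of these data known. All members may be named, with full values for those that passed, and of each other list up to 4 genes that passed. Alternatives were other normalisations, filters at a mean of 5 or 7, the mean of probe sets, trend and robust settings, array weights, Welch and Wilcoxon tests, surrogate variables (wsva) and each array left out. Python 3.11.15, pandas 2.3.3 and matplotlib 3.10.9 made the summaries and plots.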

Additional observations from a re-analysis of the deposited data

Results flagged for a closer look

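Each of the 34 members was screened for a treated array far from the other 9, by Dixon's test for 10 arrays, whose limit chance alone exceeds in about 1 in 20 groups. Vehicle groups, with more than 10 arrays, were not screened. The values of 3 genes stood apart. Iars1, the isoleucine enzyme, was 7.90 in GSK932121A replicate 24, below 8.18 to 8.43 in the other treated arrays and inside the vehicle range; without that array its adjusted p in limma was 8.3e-05. Mars2, the mitochondrial methionine enzyme, was 8.00 in GSK932121A replicate 21, and Vars2, the mitochondrial valine enzyme, was 6.57 in the same array.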

How the results depend on the processing

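No paired analysis was possible because the groups share no replicate numbers. Under 11 alternatives of processing or test, between 7 and 9 cytosolic genes rose and 0 fell in each. Of the 11 members that passed, 6 (Aars1, Eprs1, Iars1, Lars1, Mars1 and Nars1) kept their call in all of these, and 8 kept it in all 22 fits with 1 array left out. Mitochondrial rises numbered 1 (Wars2) in place of 0 after renewed quantile normalisation and at a mean of at least 5. Mitochondrial falls numbered 0 in place of 2 at a mean of at least 7, where 1 mitochondrial member was left to test, and with 5 surrogate variables, which hold 45.5% of the variance of group. Genes passed in all numbered 2244, against 1217 at a mean of at least 7 (fewer genes tested) and 603 with surrogate variables. With each array left out in turn, genes passed ranged from 1854 to 2386, cytosolic rises from 7 to 9, cytosolic falls stayed at 0, mitochondrial rises ranged from 0 to 1 (1 without vehicle replicate 1 or GSK932121A replicate 24) and falls from 1 to 2 (1 without GSK932121A replicate 13 or 23). The medians ranged from 0.20 to 0.23 for cytosolic and from -0.10 to -0.04 for mitochondrial members, and under median centring, quantile and cyclic loess normalisation from 0.22 to 0.25 and from -0.06 to -0.05. With each of these 3 normalisations 18 cytosolic genes lay above 0 and 10 mitochondrial genes below 0. The cause of the changes with surrogate variables was not tested. Over all genes, cyclic loess gave 1119 rises and 1001 falls against 964 and 1280.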
